A study of Mus musculus with 12 samples.

Results

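Transcripts of 10 neutrophil granule and calprotectin genes were followed in mouse skin under 4 treatments. The genes were chosen by symbol, and all 10 were found among the 18858 genes of the deposited table. They form 3 sets: 4 genes of immature, granule-forming neutrophils (Ngp, Camp, Ltf and Lcn2), 4 genes of mature neutrophils (Retnlg, Ly6g, Stfa2l1 and Csf3r), and the 2 calprotectin genes (S100a8 and S100a9). All 10 passed the filter on low counts, as did 15791 genes in all. The skin came from BALB/C mice, an inbred albino strain, aged 8 weeks per the series text, and its poly(A) RNA was sequenced. The 12 labelled samples make up 4 treatment groups of 3, TL+L, TSeL, TSeL+L and PBS (phosphate-buffered saline, the control), which share strain and tissue. Neither the meaning of TL, TSeL and L nor the time between treatment and sampling is given in the labels. Nor do the labels tie each sample to its own mouse, so p-values measure the spread between samples, which may be technical.

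Neutrophils are short-lived white blood cells that mature in the bone marrow and enter inflamed or wounded skin from the blood. Their granules are filled in a fixed order as they mature: primary granules first, then specific granules, then gelatinase granules. The transcripts of specific granule proteins are therefore abundant in immature neutrophils and low in mature ones, while some chemokine receptors and other surface proteins come on late. Calprotectin, a calcium- and zinc-binding complex of S100A8 and S100A9, fills the neutrophil cytosol, and keratinocytes of inflamed or wounded epidermis make it too.

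Each column of estimated counts held 16630580 to 17318158 counts over genes. Pairs of TSeL columns had mean chi-squares of 1.19 to 1.41 per gene, where counting noise alone gives about 1, and pairs of TSeL+L columns 1.38 to 1.49. Pairs of TL+L samples had 60.9 to 184 and pairs of PBS samples 25.1 to 59.0. In the headers all 3 TSeL columns carry the number 2 and all 3 TSeL+L columns the number 1, so none was tied to a single labelled sample. Each trio of near copies therefore entered as its mean, 1 sample per group, which left 8 samples: 3 TL+L, 1 TSeL, 1 TSeL+L and 3 PBS. TL+L replicate 2 stood apart from the other TL+L samples, with mean chi-squares of 184 and 152 (the other pair: 60.9), so results are also given without it. Markers of other structures moved with the groups: 10 hair shaft genes summed to 4187 to 30031 CPM in TL+L, 76.7 in TSeL, 14691 in TSeL+L and 15.7 to 1560.2 in PBS, and 8 skeletal muscle genes to 96518 CPM in TSeL against 10472 to 28619 in PBS. Scaling without these marker genes moved no log2 fold change of the 10 genes between TL+L and PBS by more than 0.01. The largest move was 0.04 in TSeL against PBS or TL+L, 0.03 in TSeL+L against PBS or TL+L, and 0.06 in TSeL+L against TSeL. Markers of neutrophils (Cxcr2, Mmp8, Fpr1, Trem1 and Il1r2) were above 0 in every sample and summed to 93.0 to 124 CPM in TL+L, 163 in TSeL, 98.7 in TSeL+L and 567 to 728 in PBS.

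The first comparison set TL+L skin against PBS skin. All 4 mature neutrophil genes and 2 of the 4 immature granule genes were lower in TL+L than in PBS, by 4.26-fold for Csf3r to 31.2-fold for Retnlg. The lower values of Ltf, Lcn2, S100a8 and S100a9 did not pass the test. In all, 6 of the 10 genes were called lower at an edgeR adjusted p under 0.05, against 7.17% of all genes tested. The median log2 fold change was -3.67 over the 4 immature genes, -3.82 over the 4 mature genes and -1.05 over the 2 calprotectin genes, against 0.01 over all genes tested. Values of 7 of the 10 genes did not overlap between the groups, all lower in TL+L, against 21.8% of all genes tested. In bulk tissue, fewer neutrophils and less RNA of a gene per neutrophil cannot be told apart.

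**Figure D1:**
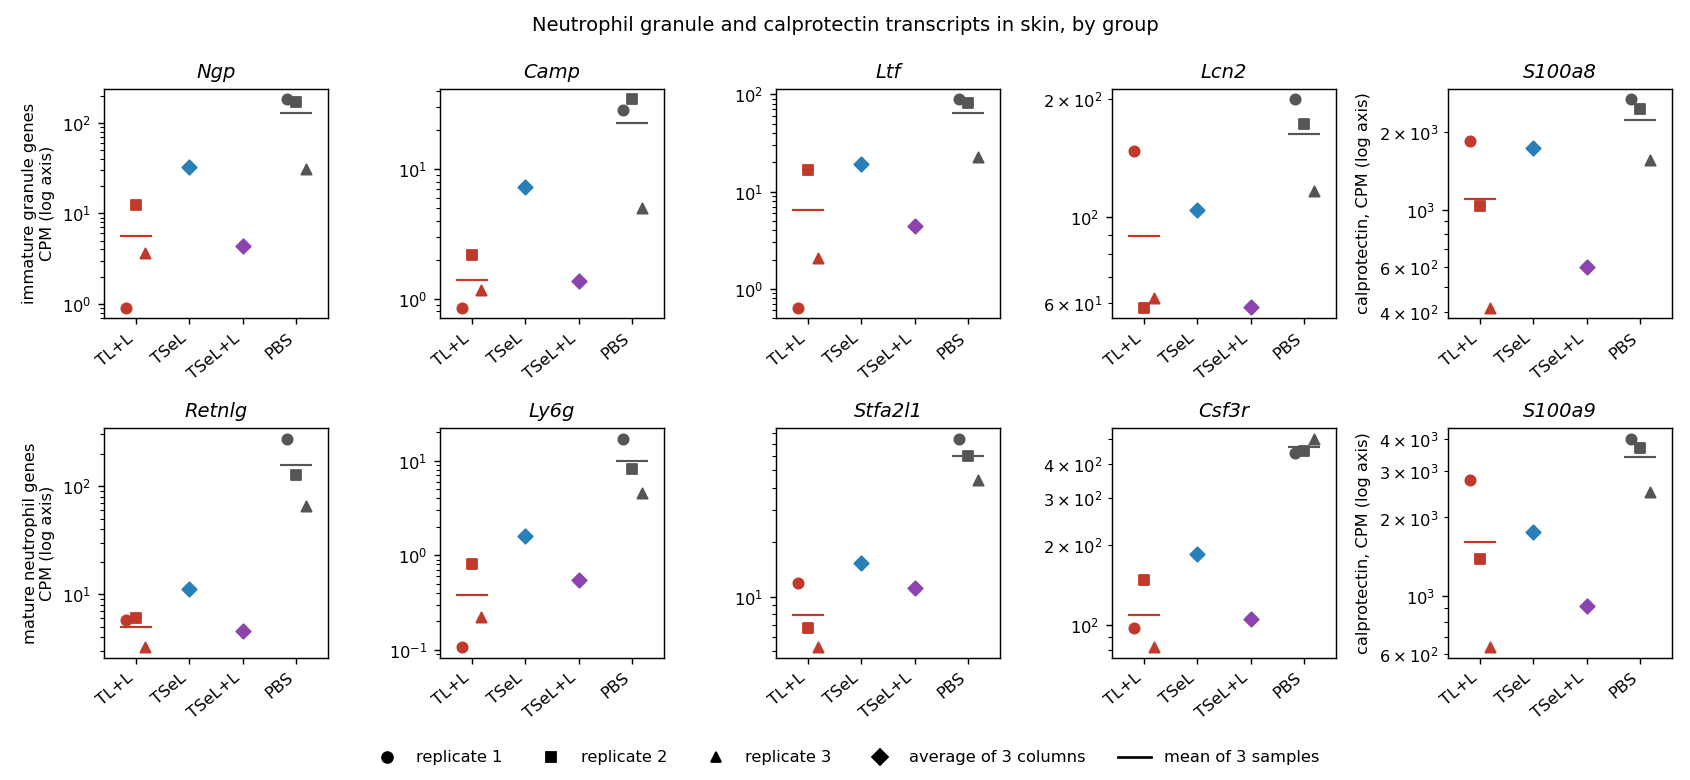
Normalised expression (CPM, log axis) of each gene in every sample, by group: points are samples, diamonds the averages of 3 near-identical columns, and bars the means of 3 samples. For Csf3r the TL+L samples sit between 82.3 and 148 CPM and the PBS samples between 441 and 499.9, whereas for S100a9 the TL+L samples reach 2788 CPM, above the lowest PBS sample at 2496.

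Ngp encodes neutrophilic granule protein, a cystatin-related protein of specific granules. It stood at 0.901, 12.47 and 3.63 CPM in TL+L, against 183, 172 and 31.3 CPM in PBS. Every TL+L sample lay below every PBS sample, and PBS replicate 3 lay far below the other PBS samples. The fall was 22.8-fold (log2 fold change -4.51, SE 1.07, edgeR adjusted p = 0.0441). Camp encodes cathelicidin, the precursor of an antimicrobial peptide stored in specific granules. Its levels were 0.848, 2.16 and 1.17 CPM in TL+L and 28.5, 34.5 and 4.97 CPM in PBS. The groups did not overlap, and PBS replicate 3 was again the lowest PBS sample. Camp fell 16.2-fold (log2 fold change -4.02, SE 0.79, edgeR adjusted p = 0.0319). Ltf encodes lactoferrin, the iron-binding protein of specific granules. It had 0.636, 16.8 and 2.06 CPM in TL+L, against 89.2, 81.3 and 22.9 CPM in PBS. TL+L replicate 2 came close to PBS replicate 3 without reaching it. The log2 fold change of Ltf was -3.31 with an SE of 1.15, and it missed the threshold (edgeR adjusted p = 0.0942) while DESeq2 called it (adjusted p = 0.0324). Without TL+L replicate 2, whose Ngp and Ltf were the highest of the TL+L samples, the fold became 57.1 for Ngp and 47.9 for Ltf, and Ltf passed (edgeR adjusted p = 0.00952). Lcn2 encodes lipocalin 2, which binds bacterial siderophores and is made by keratinocytes as well as neutrophils. Its values were 148, 58.4 and 62.0 CPM in TL+L, against 200.02, 173 and 117 CPM in PBS. TL+L replicate 1 lay above PBS replicate 3, so the groups overlapped, and the log2 fold change of -0.87 (SE 0.40) did not pass (edgeR adjusted p = 0.171).

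The promoters of Ngp, Camp and Ltf are shown because these 3 genes moved together among the PBS samples and between groups. Promoters are RefSeq sequences of the GRCm38.p6 build, 250 bases before to 50 after the gene's start, and all 10 genes had one; the build behind the deposited counts is not given in the sources used here. Capitals mark matches, on either strand, to TTGCNNAA, a core of sites bound by C/EBP factors, or to GAGGAA, a core of sites bound by PU.1; both factor families act in granulocyte development. No match of one overlapped a match of the other.
Ngp, chr9:110419558-110419857, plus strand: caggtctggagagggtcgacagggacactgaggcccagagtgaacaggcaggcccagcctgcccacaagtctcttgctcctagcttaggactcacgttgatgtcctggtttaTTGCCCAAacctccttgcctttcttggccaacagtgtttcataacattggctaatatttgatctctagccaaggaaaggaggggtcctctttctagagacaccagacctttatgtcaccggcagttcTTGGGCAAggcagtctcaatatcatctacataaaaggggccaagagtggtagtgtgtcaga
Camp, chr9:109849407-109849706, minus strand: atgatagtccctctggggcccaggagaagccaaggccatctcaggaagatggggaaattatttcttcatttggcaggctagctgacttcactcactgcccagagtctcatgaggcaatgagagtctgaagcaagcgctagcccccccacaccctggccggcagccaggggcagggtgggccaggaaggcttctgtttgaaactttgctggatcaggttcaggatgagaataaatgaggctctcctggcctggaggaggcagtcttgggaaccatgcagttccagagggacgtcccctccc
Ltf, chr9:111019042-111019341, plus strand: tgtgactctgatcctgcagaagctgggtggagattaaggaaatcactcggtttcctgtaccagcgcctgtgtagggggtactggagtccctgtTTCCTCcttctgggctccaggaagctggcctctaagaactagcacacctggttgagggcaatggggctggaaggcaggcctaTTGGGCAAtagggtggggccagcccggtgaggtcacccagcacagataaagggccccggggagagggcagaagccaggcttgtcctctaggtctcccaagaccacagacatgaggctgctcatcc
The Ngp window held TTGCNNAA at -138 and -11, counted from the start, the Ltf window held it at -75 and GAGGAA at -157, and the Camp window held neither. TTGCNNAA lay in a window of 6 of the 10 genes and in 10.8% of 32851 promoter windows of the same length, and GAGGAA in 6 of the 10 genes and in 28.3% of those windows. These are matches of letters and not measured binding.

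Retnlg encodes resistin-like gamma, a secreted protein made by neutrophils in mice. It stood at 5.72, 6.03 and 3.24 CPM in TL+L, against 275, 127 and 65.9 CPM in PBS. The TL+L samples were close together and far below the lowest PBS sample. The fall of 31.2-fold was the largest of the 10 genes (log2 fold change -4.96, SE 0.61, edgeR adjusted p = 0.0135). Ly6g encodes the surface protein by which mouse neutrophils are commonly identified. It had 2, 14 and 4 estimated counts in TL+L (0.106, 0.797 and 0.223 CPM), against 282, 133 and 77 in PBS (17.2, 8.17 and 4.56 CPM). It was the sparsest of the 10 genes, and all TL+L samples lay below all PBS samples. Ly6g fell 26.4-fold (log2 fold change -4.72, SE 0.80, edgeR adjusted p = 0.0268), and 58.5-fold without TL+L replicate 2. Stfa2l1 encodes a stefin A protein, an inhibitor of cysteine proteases. Its levels were 11.8, 6.72 and 5.24 CPM in TL+L and 74.8, 60.2 and 43.9 CPM in PBS. The groups were far apart, and Stfa2l1 fell 7.51-fold (log2 fold change -2.91, SE 0.36, edgeR adjusted p = 0.0137). Since 24.6% of its 50-base windows also occur in transcripts of other genes, Stfa2 among them, its counts could be split with close copies. Csf3r encodes the receptor for granulocyte colony-stimulating factor, which drives the production and release of neutrophils. It had 97.3, 148 and 82.3 CPM in TL+L, against 441, 451 and 499.9 CPM in PBS. Csf3r was the steadiest of the 10 genes among PBS samples, with a coefficient of variation of 6.79%. Its fall of 4.26-fold had the smallest SE of the 10 genes (log2 fold change -2.09, SE 0.24, edgeR adjusted p = 0.0116).

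The promoters of Retnlg, which fell most, and Csf3r, which varied least in PBS, are shown with the same marking.
Retnlg, chr16:48872358-48872657, plus strand: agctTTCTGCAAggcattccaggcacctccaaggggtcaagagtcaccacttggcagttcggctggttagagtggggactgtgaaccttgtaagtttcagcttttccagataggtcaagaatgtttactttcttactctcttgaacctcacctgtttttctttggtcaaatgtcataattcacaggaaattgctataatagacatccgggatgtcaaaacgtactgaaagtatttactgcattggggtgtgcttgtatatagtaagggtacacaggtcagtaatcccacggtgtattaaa
Csf3r, chr4:126024409-126024708, plus strand: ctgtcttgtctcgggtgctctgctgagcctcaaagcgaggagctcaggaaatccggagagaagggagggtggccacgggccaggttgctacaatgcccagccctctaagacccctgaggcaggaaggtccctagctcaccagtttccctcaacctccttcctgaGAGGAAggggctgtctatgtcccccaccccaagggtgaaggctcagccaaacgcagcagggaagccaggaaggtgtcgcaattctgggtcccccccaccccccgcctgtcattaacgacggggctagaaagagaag
The Retnlg window held TTGCNNAA once, at -246, and the Csf3r window held GAGGAA once, at -86.

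S100a8 and S100a9, which encode the subunits of calprotectin, lie next to each other on chromosome 3. S100a8 stood at 1854, 1035 and 414 CPM in TL+L, against 2686, 2467 and 1560.1 CPM in PBS. S100a9 stood at 2788, 1393 and 639 CPM in TL+L, against 4003, 3678 and 2496 CPM in PBS. For both genes TL+L replicate 1 lay inside the PBS range and TL+L replicate 3 was the lowest sample. The log2 fold change was -1.02 (SE 0.54, edgeR adjusted p = 0.211) for S100a8 and -1.08 (SE 0.53, edgeR adjusted p = 0.190) for S100a9. Neither passed, and neither passed with any replicate left out, although without TL+L replicate 1 the folds were larger, 3.07 for S100a8 and 3.32 for S100a9. The promoters of the pair are shown because the genes are neighbours with nearly parallel levels.
S100a8, chr3:90668821-90669120, plus strand: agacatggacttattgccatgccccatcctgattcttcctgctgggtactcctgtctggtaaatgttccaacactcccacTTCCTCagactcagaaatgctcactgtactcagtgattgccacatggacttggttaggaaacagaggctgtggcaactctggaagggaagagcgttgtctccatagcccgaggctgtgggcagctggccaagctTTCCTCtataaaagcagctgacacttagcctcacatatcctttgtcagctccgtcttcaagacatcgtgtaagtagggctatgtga
S100a9, chr3:90695672-90695971, minus strand: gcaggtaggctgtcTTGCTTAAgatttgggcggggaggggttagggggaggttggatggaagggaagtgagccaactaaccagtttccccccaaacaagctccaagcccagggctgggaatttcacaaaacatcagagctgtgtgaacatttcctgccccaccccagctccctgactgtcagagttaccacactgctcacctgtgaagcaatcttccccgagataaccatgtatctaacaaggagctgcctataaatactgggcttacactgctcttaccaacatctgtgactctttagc
The S100a8 window held GAGGAA at -170 and -36, and the S100a9 window held TTGCNNAA at -236.

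By TPM, which corrects for transcript length, S100a8 was the most abundant gene of the whole table in TL+L replicates 1 and 2 and in all 3 PBS samples, and ranked 6 in TL+L replicate 3. S100a9 ranked 2 in TL+L replicates 1 and 2, 19 in TL+L replicate 3 and 2 in each PBS sample. The pair made up 0.511%, 0.253% and 0.110% of all counts in TL+L, 0.298% in TSeL, 0.164% in TSeL+L, and 0.646%, 0.586% and 0.399% in PBS. The other 8 genes together made up 0.0166% to 0.0292% in TL+L, 0.0320% in TSeL, 0.0205% in TSeL+L and 0.0777% to 0.126% in PBS. On the TPM scale Lcn2 averaged 245 ± 128 in TL+L and 441 ± 99.6 in PBS (SD, n = 3 each), and Retnlg 24.8 ± 8.56 in TL+L and 747 ± 511 in PBS. In PBS Retnlg and Stfa2l1 (711 ± 163 TPM) thus stood above Lcn2, but Retnlg did not differ from Stfa2l1 or Lcn2 beyond its own SD. The PBS samples had 582 to 895 TPM of Stfa2l1 and 341 to 540 TPM of Lcn2, without overlap. In TL+L the order was Lcn2, Stfa2l1 (94.6 ± 35.3 TPM), Csf3r (58.0 ± 18.2 TPM) and Retnlg.

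The calls between TL+L and PBS depended on single libraries. When TL+L replicate 2 was left out, 7 of the 10 genes passed, against 21.4% of all genes tested called lower. Leaving out TL+L replicate 1 kept 2 of the 10, Stfa2l1 and Csf3r (0.927% of all genes tested), and leaving out TL+L replicate 3 kept 1, Csf3r (0.381%). Leaving out PBS replicate 3 kept 4, Camp, Retnlg, Stfa2l1 and Csf3r (0.774%). None of the 10 passed when PBS replicate 1 (lowest edgeR adjusted p = 0.0528) or PBS replicate 2 (lowest edgeR adjusted p = 0.0611) was left out, and 0.0951% and 0.514% of all genes tested were then called lower. All 10 log2 fold changes stayed negative with each library left out. Leaving out PBS replicate 1 also lowered the fold of Retnlg to 19.3 and that of Ly6g to 16.8. DESeq2 called 7 of the 10 genes lower (13.9% of all genes tested), and limma-voom called 5 (8.55% of all genes tested).

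Skin of the TSeL and TSeL+L groups was also set against PBS skin, each with 1 sample after averaging, which was taken to vary like the other groups. All 10 genes had lower values in TSeL than the PBS mean, with log2 fold changes between -3.80 for Retnlg and -0.36 for S100a8. All 10 were lower in TSeL+L than in every PBS sample, with log2 fold changes between -5.10 for Retnlg and -1.48 for Lcn2. By edgeR 0 of the 10 genes were called in either comparison, where 0% and 0.00633% of all genes tested were called lower.

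In TSeL, Ngp, Camp and Ltf stood above every TL+L sample and below the PBS mean. Ngp had 32.4 CPM and Camp 7.27 CPM in TSeL, both just above PBS replicate 3 at 31.3 and 4.97 CPM. Ltf had 19.1 CPM and Lcn2 104 CPM in TSeL, both below every PBS sample. Among mature genes, Retnlg had 11.2 CPM in TSeL (log2 fold change -3.80, SE 0.93) and Csf3r 184 CPM (log2 fold change -1.33, SE 0.35), both below every PBS sample. Ly6g, with 1.61 CPM, and Stfa2l1, with 15.4 CPM, were likewise below every PBS sample in TSeL. S100a8 had 1743 CPM in TSeL, inside the PBS range, while S100a9 had 1759 CPM, below it. Values of 7 of the 10 genes lay below all PBS samples, against 33.4% of all genes tested. At an unadjusted p under 0.05, edgeR gave 3 of the 10 as lower in TSeL, Retnlg, Stfa2l1 and Csf3r (7.36% of all genes tested), and DESeq2 called 3 with adjustment (3.34% of all genes tested). Without TL+L replicate 2 in the shared estimate of spread, Csf3r was called (edgeR adjusted p = 0.0345), as were 2.79% of all genes tested in that direction.

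In TSeL+L the levels were near those of TL+L. Ngp had 4.32 CPM in TSeL+L (log2 fold change against PBS -4.90, SE 1.80), Camp 1.37 CPM (-4.04, SE 1.28) and Ltf 4.43 CPM (-3.86, SE 1.92). Retnlg had 4.54 CPM in TSeL+L (log2 fold change against PBS -5.10, SE 1.01), Ly6g 0.547 CPM (-4.17, SE 1.24), Stfa2l1 11.1 CPM (-2.42, SE 0.55) and Csf3r 105 CPM (-2.14, SE 0.37). S100a8 had 599 CPM, S100a9 916 CPM and Lcn2 58.7 CPM in TSeL+L. Values of all 10 genes lay below all PBS samples, against 36.4% of all genes tested. At an unadjusted p under 0.05, edgeR gave 6 of the 10 as lower, Ngp, Camp and the 4 mature genes (11.1% of all genes tested), and DESeq2 called 6 with adjustment (6.09% of all genes tested). Without TL+L replicate 2, edgeR called 3 of the 10 (Ly6g, Stfa2l1 and Csf3r), against 7.92% of all genes tested.

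**Figure D2:**
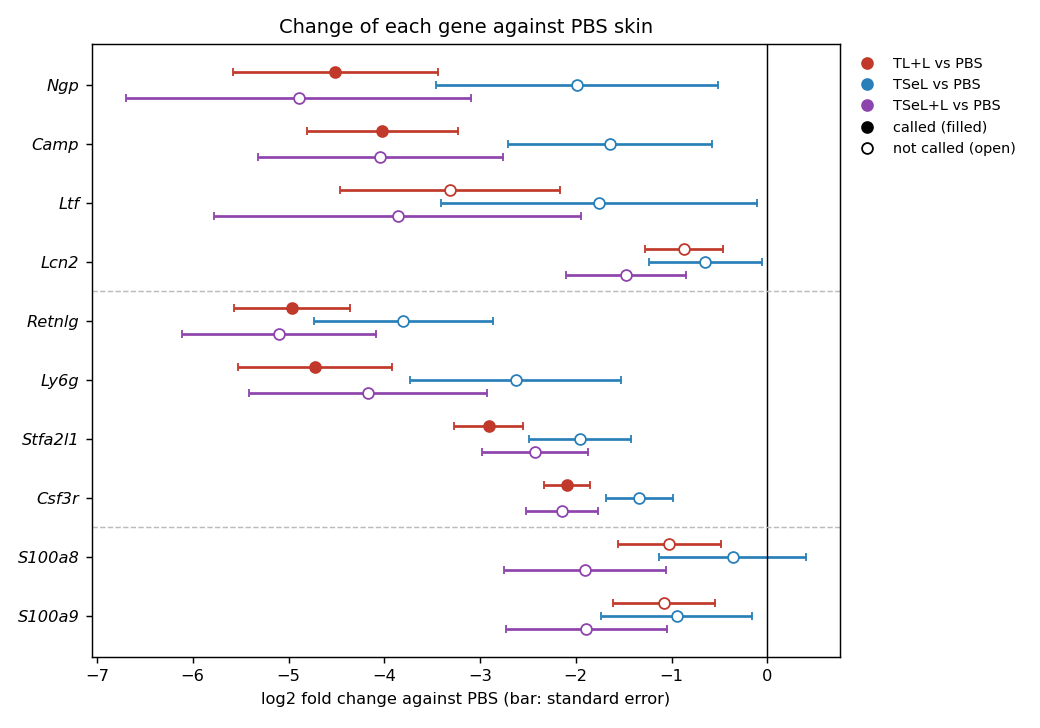
Log2 fold change against PBS (x axis) of each gene (rows, in the order immature, mature, calprotectin) in TL+L, TSeL and TSeL+L. Bars are standard errors derived from the F-test, and filled points are genes called by edgeR. The 6 called genes are all in TL+L, and TSeL points lie to the right of the TSeL+L points for all 10 genes.

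Between treatments, edgeR called 0 of the 10 genes in any comparison. TSeL+L was lower than TSeL for all 10 genes, by log2 fold changes between -2.91 for Ngp (4.32 CPM in TSeL+L, 32.4 CPM in TSeL) and -0.47 for Stfa2l1 (11.1 and 15.4 CPM). Between these single samples 55.6% of all genes tested were lower in TSeL+L. For none of the 10 was the unadjusted edgeR p under 0.05 (7.22% of all genes tested, in the lower direction), and DESeq2 called none (0.899% of all genes tested). TSeL+L values of all 10 genes lay inside the TL+L range, with log2 fold changes of TSeL+L over TL+L between -0.88 for S100a8 and 0.55 for Ly6g. The share of all genes tested inside that range was not computed, so this likeness is not shown to be particular to the 10 genes. The median log2 fold change of TSeL+L over TL+L was -0.26 over the 10 genes and -0.04 over all genes tested. Here edgeR gave none of the 10 an unadjusted p under 0.05 (0.171% of all genes tested were lower at that p) and DESeq2 called none (0.00633% of all genes tested).

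Against TL+L, the TSeL values of most of the 10 genes, though not of calprotectin, lay above the TL+L range. For 7 of the 10 genes, Ngp, Camp, Ltf and the 4 mature genes, the TSeL value lay above all 3 TL+L samples, against 34.5% of all genes tested. The log2 fold changes of TSeL over TL+L were 2.52 for Ngp (SE 1.22), 2.38 for Camp (SE 0.95) and 0.75 for Csf3r (SE 0.31). Lcn2, S100a8 and S100a9 lay inside the TL+L range, and with library totals in place of TMM the sign of Lcn2 and S100a9 turned (0.22 against -0.11 and 0.13 against -0.21). At an unadjusted p under 0.05, edgeR gave 2 of the 10 as higher, Camp and Csf3r (12.9% of all genes tested), and DESeq2 called 0 (6.73% of all genes tested). Without TL+L replicate 2 edgeR called Csf3r (adjusted p = 0.0137), as it did 13% of all genes tested in that direction.

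The immature and mature sets were contrasted sample by sample as the mean log2 CPM of the 4 immature genes minus that of the 4 mature genes. This difference was -0.95, 0.58 and 0.09 in TL+L, 0.78 in TSeL, -0.26 in TSeL+L, and -0.19, 0.39 and -0.996 in PBS. The TL+L and PBS samples covered nearly the same range, and TSeL lay above both. The group mean was -0.09 ± 0.78 in TL+L and -0.27 ± 0.70 in PBS (SD, n = 3 each), a difference of 0.17 on the log2 scale. The difference of TSeL from PBS was 1.04 and that of TSeL+L from PBS 0.00, beside an SD of 0.74 pooled over TL+L and PBS. Without Lcn2, which keratinocytes also make, the difference was -2.79, -0.14 and -1.11 in TL+L, 0.12 in TSeL, -1.32 in TSeL+L, and -0.53, 0.10 and -1.73 in PBS. The gap between TL+L and PBS was then -0.63 on the log2 scale, still within the spread of TL+L (SD 1.34) and of PBS (SD 0.93). No p was computed for these scores, since the genes were chosen with results of these data known.

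**Figure D3:**
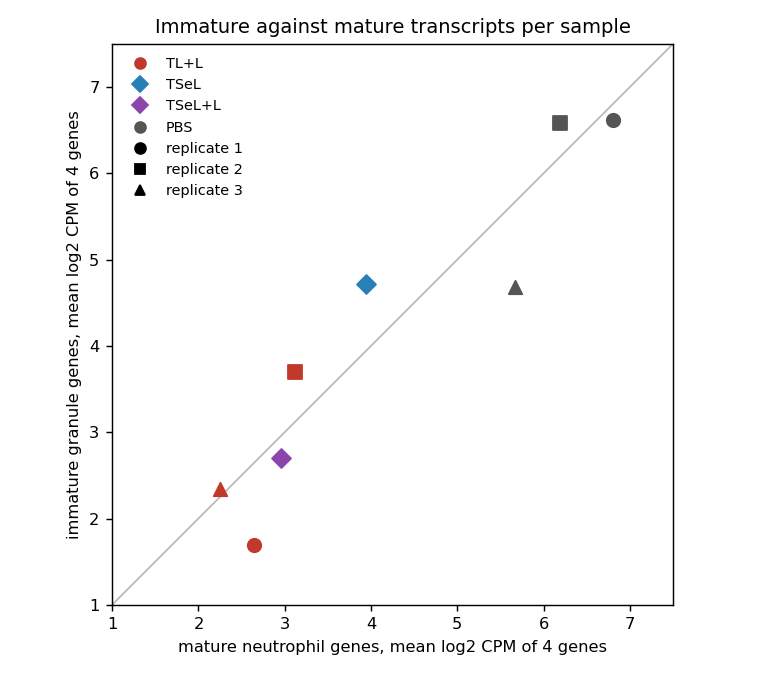
Mean log2 CPM of the 4 immature granule genes (y axis) against that of the 4 mature neutrophil genes (x axis) in each sample; the line marks equal values. TL+L and PBS samples fall on both sides of the line, PBS replicate 3 lies below it at a difference of -0.996, and TSeL lies above it at 0.78.

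Within PBS, 3 of the 4 immature genes were far lower in 1 sample. PBS replicate 3 held 0.176 times the mean Ngp CPM of the other PBS samples, 0.158 times their Camp and 0.269 times their Ltf, while Lcn2, the fourth immature gene, stood at 0.626 times. Of the mature genes, Csf3r stood at 1.12 times and Stfa2l1 at 0.651 times the mean of the other PBS samples, and Retnlg and Ly6g at 0.328 and 0.359 times, so Lcn2 lay among the mature genes. Mpo, myeloperoxidase of the primary granules, went the same way, with 5.33 CPM in PBS replicate 3 and 26.0 and 49.9 CPM in PBS replicates 1 and 2. The ratio of estimated counts of Ngp to those of Csf3r, which is not corrected for transcript length and is compared between samples only, was 0.00926, 0.0845 and 0.0441 in TL+L, 0.176 in TSeL, 0.0412 in TSeL+L, and 0.415, 0.382 and 0.0625 in PBS. PBS replicate 3 thus lay inside the TL+L range on this ratio. The count ratio of Retnlg to Csf3r, both mature genes, was 0.0588, 0.0409 and 0.0393 in TL+L, 0.0608 in TSeL, 0.0433 in TSeL+L, and 0.623, 0.283 and 0.132 in PBS. All PBS samples lay above all others on this second ratio, so the mature genes did not fall in equal measure.

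Within TL+L the genes divided across the sets. Replicate 1 had the highest S100a8, S100a9, Lcn2 and Stfa2l1 of the TL+L samples and the lowest Ngp, Camp, Ltf and Ly6g. Replicate 2 had the highest Ngp, Camp, Ltf, Retnlg, Ly6g and Csf3r. The largest span within a group was that of Ltf in TL+L, where the highest sample held 26.4 times the lowest. Retnlg in TL+L spanned 1.86-fold and Csf3r 1.79-fold.

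Other genes of the granule pathway were read from lists. Of 11 other genes of specific and gelatinase granules, 10 were called lower in TL+L than in PBS (median log2 fold change -1.99), against 7.17% of all genes tested, among them Mmp8, neutrophil collagenase, with 8.11, 7.57 and 15.8 CPM in TL+L against 145, 87.8 and 58.5 CPM in PBS (edgeR adjusted p = 0.0182). Adam8, Mmp9 and Hp, the last of which encodes haptoglobin, fell by 2.55, 1.88 and 1.84 on the log2 scale. Of 15 other mature neutrophil genes, 14 were called lower (median log2 fold change -2.43). The exception, Padi4, named after its value was seen, had a log2 fold change of 1.85 and was not called by edgeR. Its unadjusted edgeR p was under 0.05 (17.7% of all genes tested were higher at that p). DESeq2 called Padi4 higher (11.9% of all genes tested). Cxcr2, a receptor for neutrophil-attracting chemokines, had 36.3, 55.5 and 34.8 CPM in TL+L, against 198, 167 and 201 CPM in PBS (edgeR adjusted p = 0.0100). Trem1, an amplifying receptor of myeloid cells, fell by 3.23 on the log2 scale, and Hdc, the enzyme that makes histamine, fell by 2.43. Of 6 primary granule genes 1 was called lower, Mpo (edgeR adjusted p = 0.0424), with a median log2 fold change of -3.53 over the list. These 6 genes were sparse, at summed levels of 2.81 to 8.20 CPM in TL+L and 11.3 to 109 CPM in PBS. In TL+L replicates 1, 2 and 3, 2, 0 and 1 of them were at 0. Each of these counts of genes called lower by edgeR stands beside the same 7.17% of all genes tested, and they rested on the libraries kept. Over all genes tested, 0.927%, 21.4% and 0.381% were called lower without TL+L replicates 1, 2 and 3, and 0.0951%, 0.514% and 0.774% without PBS replicates 1, 2 and 3. The number called lower of the 11 specific and gelatinase granule genes was 2, 10 and 3 without TL+L replicates 1, 2 and 3, and 0, 1 and 2 without PBS replicates 1, 2 and 3. That of the 15 mature genes was 7, 13 and 4 without these TL+L replicates and 2, 5 and 7 without these PBS replicates. That of the primary granule genes was 4 without TL+L replicate 2 and 0 without any other library.

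Among 9 factors of neutrophil production, 3 were called lower in TL+L than in PBS (median log2 fold change -1.41), against 7.17% of all genes tested. Csf3, the ligand of Csf3r, had 8.48, 5.92 and 4.41 CPM in TL+L, 13.7 in TSeL, 2.57 in TSeL+L, and 39.5, 27.6 and 16.9 CPM in PBS (edgeR adjusted p = 0.0279 between TL+L and PBS). Every sample of the treated groups lay below every PBS sample. Cebpd, a C/EBP factor, had 31.7, 31.5 and 33.8 CPM in TL+L, 86.2 in TSeL, 38.8 in TSeL+L, and 85.8, 87.6 and 85.0 CPM in PBS (edgeR adjusted p = 0.00535 between TL+L and PBS). Its TSeL value lay inside the PBS range, unlike those of TL+L and TSeL+L. Spi1, which encodes PU.1, fell by 1.65 on the log2 scale in TL+L (edgeR adjusted p = 0.0263). Of the 9, 7 had negative log2 fold changes, and which cells of the skin these transcripts came from was not tested. Cebpa, another C/EBP factor, named after its value was seen, lay higher in every TL+L sample than in any PBS sample. It had 165, 164 and 139 CPM in TL+L, 86.5 in TSeL, 144 in TSeL+L, and 95.0, 122 and 79.3 CPM in PBS. Its log2 fold change of 0.66 did not pass between TL+L and PBS (edgeR adjusted p = 0.0562). DESeq2 called 1 of the 9 higher (11.9% of all genes tested). Without TL+L replicate 2, 6 of the 9 were called lower (21.4% of all genes tested), and without any other TL+L or PBS library 1. Against the same 7.17%, 1 of 4 calprotectin receptor genes was called lower, Tlr4 (log2 fold change -1.25, edgeR adjusted p = 0.0486), and 0 were called without any one library other than TL+L replicate 2. Of 9 other stefin A genes 2 were called lower (7.17% of all genes tested), Csta2 and Cstdc4, with log2 fold changes of -3.23 and -3.15 against a list median of -0.33, and leaving out TL+L replicate 3, PBS replicate 1 or PBS replicate 2 left 1, 0 and 1 called.

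Markers of other cells were read beside these results. Of 10 genes of stressed keratinocytes, such as Krt6a and Krt16, 0 were called in TL+L against PBS by edgeR. At an unadjusted p under 0.05, edgeR gave 1 as lower, Sprr1b (log2 fold change -1.16), and 1 as higher, Sprr1a (log2 fold change 1.05), both named after their values were seen, against 18.6% of all genes tested lower and 17.7% higher at that p. DESeq2 called the same pair, Sprr1b lower (13.9% of all genes tested) and Sprr1a higher (11.9%). Without TL+L replicate 2 edgeR called Sprr1a (adjusted p = 0.00360), in a fit that called 6299 of 15748 genes in either direction, 3374 of them lower. The median log2 fold change was -0.48. Their summed level was 9758, 5422 and 3150.3 CPM in TL+L, 4775 in TSeL, 2807 in TSeL+L, and 8193, 11908 and 6869.9 CPM in PBS, with none of the 10 at 0. The summed calprotectin level was 4643, 2428 and 1053 CPM in TL+L, 3502 in TSeL, 1516 in TSeL+L, and 6689, 6144 and 4056 CPM in PBS. TL+L replicate 1 was the highest and replicate 3 the lowest TL+L sample on both measures. Of 7 interfollicular keratinocyte genes, edgeR called 2 higher in TL+L than in PBS, as it did 896 of 15791 genes tested. Their median log2 fold change was 0.8. They summed to 10210 to 11297 CPM in TL+L, 6971 in TSeL, 13349 in TSeL+L and 6970 to 10713 CPM in PBS. The part of keratinocytes in the levels of S100a8, S100a9 and Lcn2 was not tested. Of 11 macrophage and monocyte genes 0 were called by edgeR, 7 were lower at an unadjusted p under 0.05 (18.6% of all genes tested) and DESeq2 called 4 lower (13.9%), with a median log2 fold change of -0.71. They summed to 599 to 1312 CPM in TL+L, 703 in TSeL, 1037 in TSeL+L and 1377 to 1634 CPM in PBS, with none at 0, and without TL+L replicate 2 edgeR called 9 of the 11 lower (21.4% of all genes tested). Their part in the results was not tested.

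**Figure D4:**
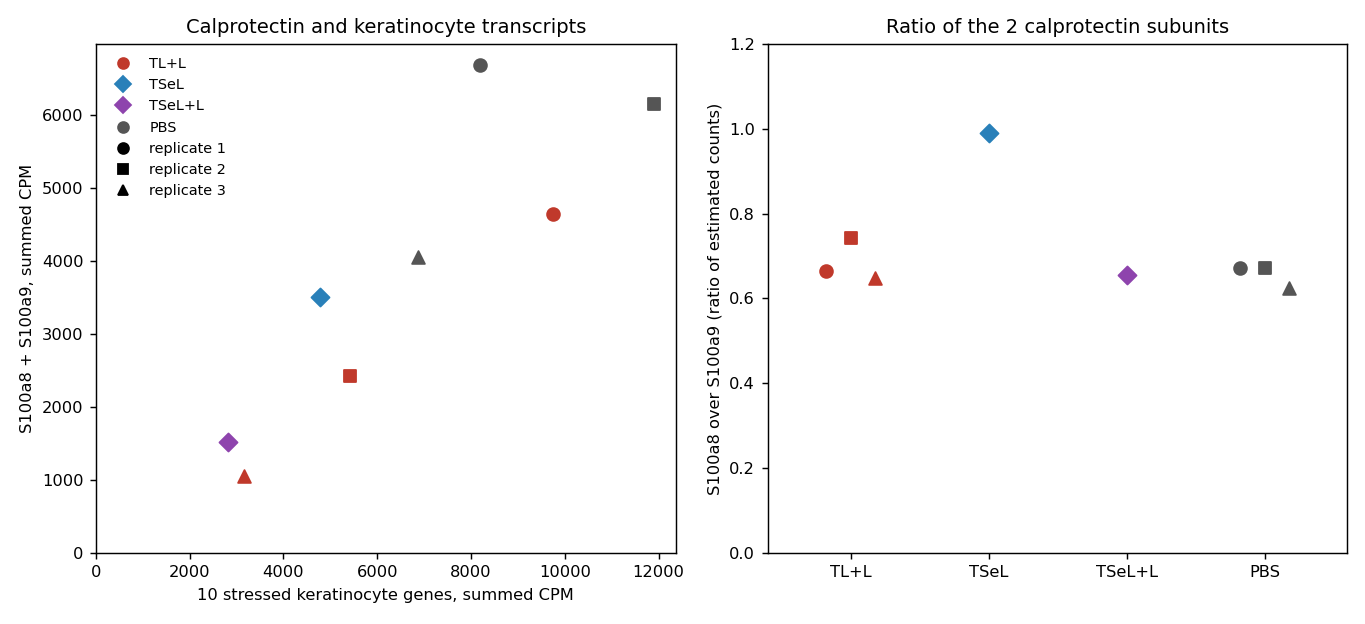
Left, the summed CPM of S100a8 and S100a9 (y axis) against that of 10 stressed keratinocyte genes (x axis) per sample, where TL+L replicate 1 lies at 9758 and 4643 CPM and TL+L replicate 3 at 3150.3 and 1053 CPM. Right, the ratio of S100a8 to S100a9 estimated counts by group, with TSeL at 0.991 above all other samples.

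The balance of the 2 subunits was close in most samples and stood apart in TSeL. The ratio of estimated counts of S100a8 to those of S100a9 was 0.665, 0.743 and 0.648 in TL+L, 0.991 in TSeL, 0.654 in TSeL+L, and 0.671, 0.671 and 0.625 in PBS. The 3 TSeL columns gave 1.03, 0.975 and 0.97006, all above every other sample, and the 3 TSeL+L columns 0.661, 0.678 and 0.626. With 1 TSeL sample the ratio has no replicate check, and it was not tested.

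The genes whose pattern over the 8 samples was most like the mean of each set were found among 13013 genes by the root mean square difference of centred log2 CPM. For the mature set they were Cd177 (0.28), Ccno (0.30), Trem1 (0.34), Sele (0.35) and Cstdc4 (0.41). For the immature set they were Chst4 (0.51), Cd177 (0.56), Msln (0.59), Ms4a3 (0.61) and Thbs4 (0.62). Cd177, a neutrophil surface protein, had 2.54, 4.84 and 1.45 CPM in TL+L, 5.87 in TSeL, 2.90 in TSeL+L, and 57.2, 33.1 and 15.7 CPM in PBS. Sele, the endothelial adhesion molecule E-selectin, had 9.32, 19.1 and 9.43 CPM in TL+L, 22.03 in TSeL, 10.3 in TSeL+L, and 106, 110.1 and 80.3 CPM in PBS. Likeness of pattern over 8 samples is a description of these samples.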

How the data were processed

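Poly(A) RNA from skin was measured in 12 labelled samples. The labels' protocols name selection of poly(A) RNA on oligo-dT beads and a TruSeq kit. The authors deposited expected counts and TPM per gene, and expected counts per transcript. Bowtie2 and RSEM stand among the tools in the submitters' processing notes, while their versions, the genome build, the annotation and the strand setting were not given in the sources used here. Of the deposited expected counts, 88.7% were whole (tolerance 0), and all were rounded. Not used were 30 columns of per-sample or averaged values (12 FPKM, 12 averages and the 6 TPM of TSeL and TSeL+L). The code TS in the headers was taken for TSeL, and TSL for TSeL+L. Every value of these groups rests on that reading. Their near-identical columns, compared over genes with at least 40 counts in a pair, were averaged.

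The 8 samples were fitted with edgeR 4.0.16 in R 4.3.3: filterByExpr, TMM factors, 1 coefficient per group, a robust quasi-likelihood F-test and two-sided Benjamini-Hochberg adjusted p-values over 15791 genes, called under 0.05. The residual degrees of freedom were 4 and the common biological coefficient of variation 0.278. Each SE was derived from the F-test, as the absolute log2 fold change divided by the square root of F. With 3 against 3 samples an exact permutation test cannot give a p under 0.1, so none was run on single genes. CPM were scaled by TMM, with a prior count of 2 for log2 CPM. Ratios between genes use estimated counts, and levels per length the deposited TPM of TL+L and PBS. Alternatives were DESeq2 1.42.0, limma-voom (limma 3.58.1), other scalings and filters, only the groups compared, all columns as separate samples, a replicate block and each TL+L or PBS replicate left out. Another single column in place of each average was added after seeing the data.

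The 10 genes and all lists were chosen with earlier results of these data known. Of 131 list genes 127 were found in the table, and 1 further gene is not reported here. Named were the 10 genes, up to 4 called genes of each list, and the 5 genes with at least 5 CPM in a sample whose pattern was nearest to each set. Promoters and gene neighbours come from RefSeq (GRCm38.p6) and the windows shared between genes from GENCODE vM21 transcripts, since the build of the deposited counts is unknown.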

Additional observations from a re-analysis of the deposited data

How the results depend on the processing

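Between TL+L and PBS 6 of the 10 genes were called, and with each replicate left out 0 to 7. All 10 log2 fold changes kept their sign under 19 alternatives, ranging from -5.84 to -3.99 for Ngp, from -5.32 to -4.27 for Retnlg, from -2.37 to -1.92 for Csf3r and from -1.62 to -0.62 for S100a8. Over all genes 2029 were called, 4064 by DESeq2, 7164 with all columns as separate samples, 1080 with the replicate block and 16 to 6299 with a replicate left out; the cause was not tested. Same-numbered TL+L and PBS samples did not deviate together (correlations -0.175, 0.130 and 0.212), so the numbers were not taken as pairs; with the replicate block 5 of the 10 genes were called, without Ngp (adjusted p = 0.0582).

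Between TSeL and PBS 0 of the 10 genes were called, 3 by DESeq2, 1 with only the groups compared, 6 with all columns as separate samples and 0 to 1 with a replicate left out. Between TSeL+L and PBS these were 0, 6, 4, 10 and 0 to 3. All columns as separate samples gave 5 between TSeL+L and TSeL and 5 between TSeL and TL+L, where 0 were called otherwise except 1 between TSeL and TL+L without TL+L replicate 2; near copies counted as replicates make the spread too small. Over all genes the calls between TSeL and PBS were 0, but 1354 by DESeq2, 417 with only the groups compared, 6521 with all columns separate and 1315 without TL+L replicate 2. Between TSeL+L and PBS they were 2, against 1515, 1802, 7093 and 2163, with 4 by limma-voom, 0 with column 2 in place of each average and 2 with column 1 or column 3. Between TSeL+L and TSeL 0 were called, but 360 by DESeq2 and 6618 with all columns separate; between TSeL and TL+L 0, but 1771, 6625 and 3132 without TL+L replicate 2; between TSeL+L and TL+L 0, but 1 by DESeq2 and 3 with all columns separate. A fit of only TSeL+L and TSeL was not possible, with 1 sample each.

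The immature minus mature difference between TL+L and PBS was 0.17, and -0.63 without Lcn2; the cause was not tested beyond that omission. Library totals in place of TMM moved the median of all genes to 0.15 in TL+L against PBS, -0.18 in TSeL against PBS, 0.16 in TSeL+L against PBS, 0.27 in TSeL+L against TSeL and -0.30 in TSeL against TL+L, and with them the sign of Camp turned between TSeL+L and TL+L (-0.02 against 0.01). Depth limited Ly6g most, with 2 to 14 estimated counts in TL+L.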
